A study of Mus musculus with 12 samples.

Results

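The Wnt genes of the mouse liver were followed in both experiments of the study. They comprise the Wnt ligands, the Frizzled, LRP, ROR and RYK receptors, the secreted SFRP, DKK, WIF1 and NOTUM inhibitors, the R-spondins with their LGR receptors, and the membrane ligases, AXIN2 and TCF/LEF factors that form the feedback and output of the pathway. They were chosen by symbol, through the family patterns Wnt, Fzd, Sfrp, Dkk and Rspo and 17 further named genes. The gene table of the choline-deficient, ethionine-supplemented (CDE) diet experiment names 52 of them among 31663 genes, and that of the normal diet experiment 47 among 25285. In all, 55 were in either table and 44 in both.

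Wnt ligands are lipid-modified secreted proteins that bind Frizzled receptors together with the co-receptors LRP5 and LRP6. β-catenin is then spared from degradation and acts with TCF/LEF factors on genes such as Axin2, while other branches, through ROR and RYK, work without β-catenin. R-spondins bind LGR receptors and remove the ligases ZNRF3 and RNF43, which otherwise clear Frizzled from the cell surface. In the liver, ligands and R-spondin 3 from the endothelium around the central vein maintain the gene program of the neighbouring hepatocytes, which includes glutamine synthetase (Glul) and Cyp2e1.

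Polyadenylated RNA of the whole liver of C57BL/6 mice was sequenced in 4 groups of 3 mice, 12 libraries in all. CflarFF mice carry loxP sites around exon 1 of Cflar, which encodes the caspase 8 inhibitor cFLIP, and CflarLKO mice carry in addition Cre under the albumin promoter, which acts in hepatocytes. Both were females that were 8 weeks old when 28 days of the choline-deficient diet with ethionine in the drinking water began. Fgf18Tg mice carry an Fgf18 cDNA in the Rosa26 locus behind a CAG promoter and a loxP-flanked stop, opened by albumin promoter-driven Cre, and they and NonTg controls were 8 weeks old on the normal diet. Whether NonTg mice carried either allele is not given in the sources used here.

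Library totals ran from 6487178 to 10414883 counts on the CDE diet and from 1136680 to 3089872 on the normal diet, so that low Wnt genes were measured less precisely in the latter. Cflar had 592, 608 and 716 normalized counts in CflarFF livers and 460, 449 and 477 in CflarLKO livers. Fgf18 had 63 to 191 read counts in NonTg and 2803 to 9564 in Fgf18Tg libraries. In the deeper CDE diet libraries Fgf18 had 0, 0 and 1 read counts in CflarFF and 6, 7 and 3 in CflarLKO. The source of the Fgf18 reads in NonTg libraries was not tested. All 6 CDE diet libraries had 2694 to 4458 counts of Xist, and all 6 normal diet libraries had 59 to 187 counts of the Y-linked Ddx3y, so that sex differed between the experiments. CflarFF replicate 2 stood apart, where the Mup genes (major urinary proteins) took 1.23% of the reads, beside 0.156% and 0.17% in the other CflarFF libraries. Albumin (Alb) took 2.75% of its reads, beside 7.82% and 5.04% in CflarFF replicates 1 and 3. The bile duct markers Krt19 (85.0 normalized counts, beside 18.9 and 21.4) and Epcam (248, beside 59.9 and 58.3) were higher in it. Krt23, another such marker, was not (51.9, beside 71.0 and 80.9). Nothing in the labels pairs libraries across groups, and p-values measure the spread between the 3 mice of a group.

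Of the 52 Wnt genes on the CDE diet, 31 passed the filter on low counts, and 9 were higher and 1 was lower in CflarLKO than in CflarFF livers (edgeR quasi-likelihood test, adjusted p under 0.05). These are 29.0% and 3.23% of those tested, while 15.6% of all 17036 genes tested were higher and 13.1% were lower. The median log2 fold change was 0.06 over the tested Wnt genes and -0.00 over all genes tested. Without the CflarFF library that stood apart, 10 were higher and 2 lower. In the normal diet experiment 16 of 47 passed the filter, 3 were higher in Fgf18Tg than in NonTg livers, or 18.8%, and 0 were lower, while 10.7% of 10909 genes tested were higher and 11.7% lower. At an unadjusted p under 0.05, 1 Wnt gene was lower there, and DESeq2 called 0 lower. The median log2 fold change was -0.06 over the 16 Wnt genes and 0.02 over all genes. The filter requires 3 libraries at its count level, and a gene that passed only through the group in which it was high had to differ. Of the 9 higher genes on the CDE diet, 4 passed only with their CflarLKO libraries, as Wnt7b reached the level in 0, Frzb and Sfrp1 in 1 and Wnt5a in 2 CflarFF libraries. Of the 3 higher genes on the normal diet, Dkk3 and Frzb reached it in 0 NonTg libraries. These counts therefore describe the genes that could be measured and support nothing further. In bulk RNA, fewer cells of a type and less RNA per cell cannot be told apart.

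**Figure D1:**
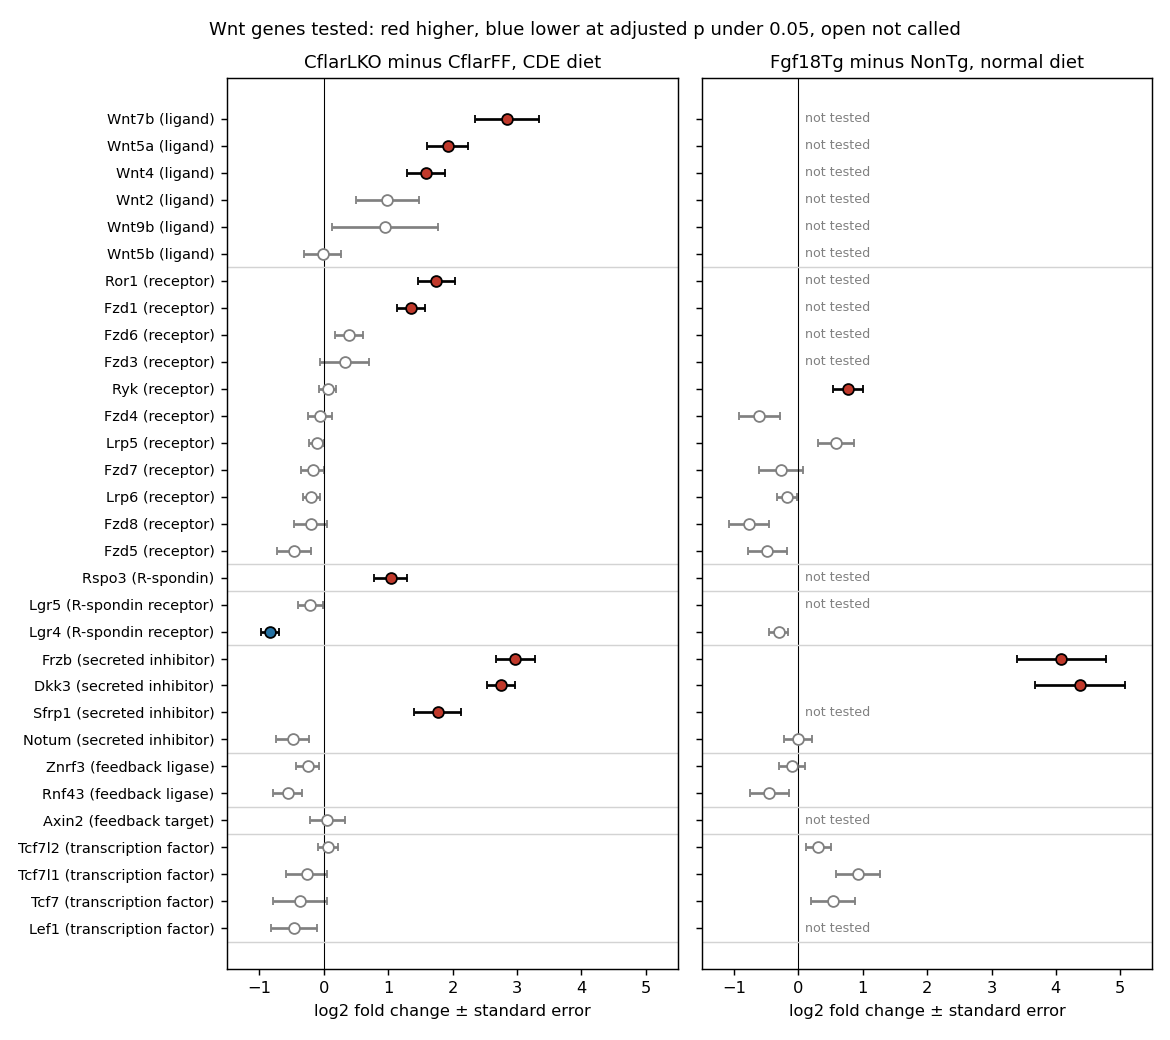
Log2 fold change (x axis, with standard error bars) of the 31 Wnt genes tested on the CDE diet (left, CflarLKO minus CflarFF) and of the 16 tested on the normal diet (right, Fgf18Tg minus NonTg), grouped by role. Red points are called higher, the blue point lower and open points neither. The called genes on the left lie among ligands, secreted inhibitors, Fzd1, Ror1 and Rspo3, with Lgr4 at -0.83, and the largest changes on the right are those of Dkk3 at 4.38 and Frzb at 4.09.

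Among the ligands, 6 of 16 passed the filter on the CDE diet and Wnt4, Wnt5a and Wnt7b rose in CflarLKO livers. Wnt5a, the prototype of ligands that act without β-catenin, had 20.0, 20.1 and 9.52 normalized counts in CflarFF and 66.5, 73.0 and 49.3 in CflarLKO livers. Each CflarLKO library exceeded each CflarFF library more than the libraries of a group differed. Its means were 16.5 ± 6.06 and 62.9 ± 12.2 (SD, n = 3 mice per group). The log2 fold change was 1.93 (standard error 0.32, edgeR adjusted p = 0.00149). Wnt4, a ligand needed for kidney and female reproductive tract development, had 40.0, 56.6 and 27.4 in CflarFF and 149, 136 and 85.4 in CflarLKO livers. The groups did not overlap, and CflarLKO replicate 3 was the lowest of its group. The log2 fold change was 1.59 (standard error 0.29, edgeR adjusted p = 0.00259). Wnt7b had 1.11, 3.54 and 1.19 in CflarFF and 14.7, 14.8 and 14.4 in CflarLKO livers. It was near absence in the controls and close to equal in the 3 CflarLKO livers, with a log2 fold change of 2.84 (standard error 0.50, edgeR adjusted p = 0.00201).

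Wnt2 and Wnt9b, ligands of the liver endothelium, did not pass the test. Wnt2 had 7.77, 31.9 and 16.7 normalized counts in CflarFF and 47.6, 19.1 and 44.5 in CflarLKO livers, with CflarLKO replicate 2 inside the control range. Its log2 fold change was 0.99 (standard error 0.49, edgeR adjusted p = 0.161), and it passed without CflarFF replicate 2 (1.60), without the filter on low counts and with scaling by library size only. Wnt9b had 2.22, 3.54 and 15.5 in CflarFF and 21.0, 2.61 and 16.8 in CflarLKO livers. Low and high libraries were found in both groups, and the log2 fold change was 0.95 (standard error 0.82, edgeR adjusted p = 0.426). Wnt5b, a close relative of Wnt5a, was at 40.4 ± 12.5 and 39.4 ± 5.91 (log2 fold change -0.02, standard error 0.28).

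Among the 14 receptors, 11 were tested on the CDE diet, and Fzd1 and Ror1 rose. Fzd1 had 74.4, 62.5 and 45.2 normalized counts in CflarFF and 179, 145 and 141 in CflarLKO livers, without overlap. Its log2 fold change was 1.35 (standard error 0.21, edgeR adjusted p = 0.00109). Ror1, a tyrosine kinase-like receptor that binds WNT5A, had 13.3, 16.5 and 16.7 in CflarFF and 65.1, 46.9 and 43.3 in CflarLKO livers. The lowest CflarLKO library was above every CflarFF library, and the log2 fold change was 1.75 (standard error 0.29, edgeR adjusted p = 0.0016).

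The receptors with the highest counts moved little. Lrp5 was at 416 ± 2.34 in CflarFF and 384 ± 19.3 in CflarLKO livers (log2 fold change -0.11, standard error 0.12), Lrp6 at 372 ± 30.2 and 325 ± 17.5 (-0.20, 0.13), and Ryk at 220 ± 6.47 and 229 ± 12.1 (0.06, 0.13). Lrp5, Lrp6 and Fzd7 lay lower and Fzd6 higher in CflarLKO livers without overlap between the groups, but none passed the test, and 44.9% of all genes tested had groups that did not overlap. Fzd6 had a log2 fold change of 0.39 and Fzd7 of -0.17. The remaining receptors Fzd3, Fzd4, Fzd5 and Fzd8 had log2 fold changes from -0.47 (Fzd5) to 0.33 (Fzd3).

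Of 10 secreted inhibitors 4 were tested on the CDE diet, and Dkk3, Frzb and Sfrp1 rose. Dkk3, the divergent member of the Dickkopf family, was placed in this class by its symbol, and its action on Wnt signals was not tested. It had 18.9, 26.0 and 33.3 normalized counts in CflarFF and 196, 163 and 166 in CflarLKO livers. The groups were far apart beside their spread, at 26.0 ± 7.22 and 175 ± 18.1, with a log2 fold change of 2.75 (standard error 0.22, edgeR adjusted p = 4.81e-05). Frzb, also called SFRP3, a soluble protein with a Frizzled-like domain that binds Wnts, had 12.2, 17.7 and 11.9 in CflarFF and 139, 79.1 and 112 in CflarLKO livers. Its log2 fold change of 2.98 (standard error 0.30, edgeR adjusted p = 0.000132) was the largest of the tested Wnt genes on this diet. Sfrp1, of the same family, had 9.99, 11.8 and 11.9 in CflarFF and 53.2, 25.2 and 36.1 in CflarLKO livers. CflarFF libraries were close to equal and CflarLKO libraries were spread more widely, with a log2 fold change of 1.77 (standard error 0.36, edgeR adjusted p = 0.00454). Notum, an enzyme that removes the lipid from Wnts, went the other way without passing the test, at 100.2 ± 31.7 in CflarFF and 71.9 ± 12.4 in CflarLKO livers (log2 fold change -0.48, standard error 0.26). Without CflarFF replicate 2, its lowest control, Notum passed at -0.72.

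In the R-spondin arm the ligand rose and a receptor fell on the CDE diet. Rspo3 had 53.3, 64.9 and 42.8 normalized counts in CflarFF and 146, 98.2 and 83.0 in CflarLKO livers. The groups did not overlap, and CflarLKO replicate 1 was well above the others. The log2 fold change was 1.04 (standard error 0.25, edgeR adjusted p = 0.0112), and the call was lost without that library (0.75). Lgr4, an R-spondin receptor that hepatocytes express, had 451, 407 and 458 in CflarFF and 232, 276 and 229 in CflarLKO livers. All CflarLKO libraries lay well below all CflarFF libraries, with a log2 fold change of -0.83 (standard error 0.14, edgeR adjusted p = 0.00145). The call on Lgr4 was lost with scaling by library size only (-0.37), under which the median of all genes tested stood at 0.46. Lgr5, a receptor of the same kind and itself a Wnt target, was at 108 ± 14.5 in CflarFF and 92.9 ± 16.5 in CflarLKO livers (log2 fold change -0.21, standard error 0.20).

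The feedback genes and transcription factors did not pass the test on the CDE diet. Axin2, a feedback target read widely as a measure of β-catenin output, had 161, 116 and 65.4 normalized counts in CflarFF and 125, 105 and 126 in CflarLKO livers. The CflarLKO libraries lay inside the control range, with a log2 fold change of 0.06 (standard error 0.27, edgeR adjusted p = 0.899). Rnf43 had 131, 123 and 99.9 in CflarFF and 85.4, 56.5 and 98.6 in CflarLKO livers. Its groups were apart by a narrow margin, and its log2 fold change was -0.56 (standard error 0.22, edgeR adjusted p = 0.0811). It passed in the fit of all 12 libraries (-0.55). Znrf3 had a log2 fold change of -0.25, Tcf7l2 of 0.06, Tcf7l1 of -0.27, Tcf7 of -0.37 and Lef1 of -0.47, each with overlapping groups. Among the 4 transcription factors 0 had an unadjusted p under 0.05, and DESeq2 called 0.

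**Figure D2:**
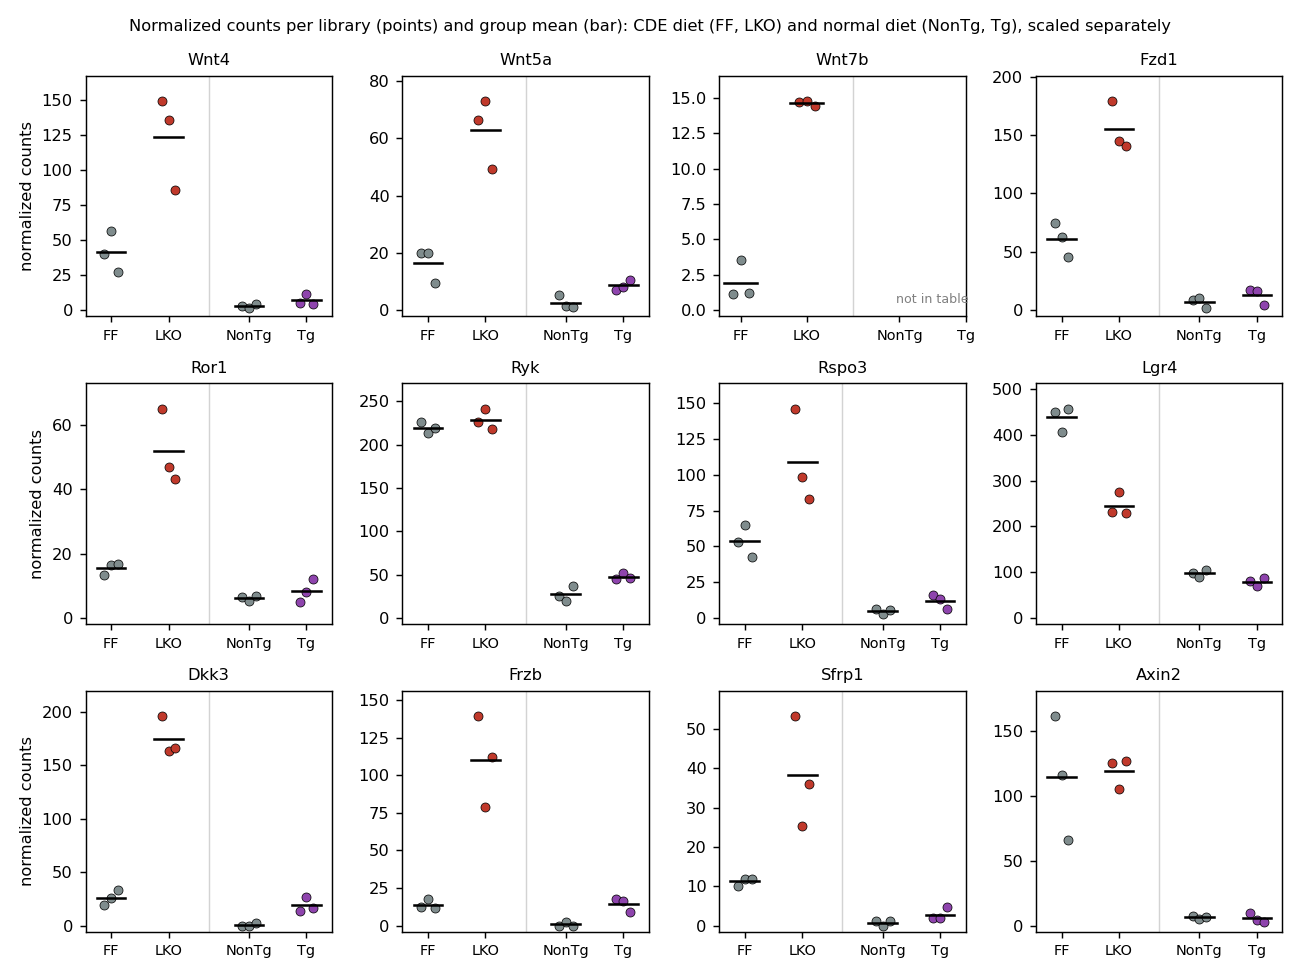
Normalized counts (y axis, from about 0, a separate scale in each panel) of 12 Wnt genes in every library (points) with the group mean (bar), for CflarFF and CflarLKO on the CDE diet and NonTg and Fgf18Tg on the normal diet, which were scaled separately. Dkk3 and Frzb are higher in the changed group in both experiments, Ryk is higher in Fgf18Tg livers, Lgr4 is lower in CflarLKO livers, and the groups overlap for Axin2.

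The 3 Wnt genes that rose in Fgf18Tg livers were Dkk3, Frzb and Ryk. Dkk3 had 0, 0 and 2 read counts in NonTg and 22, 30 and 11 in Fgf18Tg libraries. It was at the edge of detection in the controls and present in each Fgf18Tg library, with a log2 fold change of 4.38 (standard error 0.70, edgeR adjusted p = 0.000273). Since the controls held 2 counts in all, the ratio of the summed counts after scaling, 23.6, has a 95% interval from counting of 6.27 to 199. Frzb had 0, 2 and 0 read counts in NonTg and 29, 18 and 6 in Fgf18Tg libraries. It showed the same pattern, with a log2 fold change of 4.09 (standard error 0.69, edgeR adjusted p = 0.000466) and a ratio of 19.9 (5.23 to 168). Both log2 fold changes depend on the control library that held the counts: without NonTg replicate 3 that of Dkk3 was 7.26, and without NonTg replicate 2 that of Frzb was 6.997.

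Ryk, a receptor with an inactive kinase domain, had 24.8, 19.8 and 37.3 normalized counts in NonTg and 44.5, 51.3 and 45.9 in Fgf18Tg livers. The groups did not overlap, and the controls spread more than the Fgf18Tg livers. Its log2 fold change was 0.77 (standard error 0.23, edgeR adjusted p = 0.0251), a call lost with DESeq2 (0.78) and without NonTg replicate 1 (0.67), NonTg replicate 2 (0.58) or Fgf18Tg replicate 2 (0.70). With scaling by library size only it was 1.17, while the median of all genes stood at 0.42.

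The other 13 tested Wnt genes did not pass on the normal diet. Lgr4 had 97.9, 89.9 and 104 normalized counts in NonTg and 80.5, 70.2 and 87.2 in Fgf18Tg livers. Its groups did not overlap, with Fgf18Tg lower, and the log2 fold change was -0.31 (standard error 0.15, edgeR adjusted p = 0.165). Fzd8 had 18.3, 23.8 and 15.8 in NonTg and 9.62, 12.6 and 12.2 in Fgf18Tg livers (log2 fold change -0.77, edgeR adjusted p = 0.0894). Lrp6, Fzd5, Fzd8, Rnf43 and Lgr4 were lower without overlap, and 38.6% of all genes tested had groups that did not overlap. Tcf7l1, a TCF factor that often acts as a repressor, was at 11.5 ± 5.94 in NonTg and 21.7 ± 3.93 in Fgf18Tg livers (log2 fold change 0.92, edgeR adjusted p = 0.066) and passed without NonTg replicate 3 (1.39). Lrp5 had a log2 fold change of 0.58 and passed without NonTg replicate 1 (1.06). With scaling by library size only Tcf7l1 (1.32), Lrp5 (0.98), Tcf7 (0.93) and Tcf7l2 (0.71) passed, beside the median of 0.42 over all genes. Notum was at 44.1 ± 9.81 and 42.7 ± 8.50 (-0.01), Znrf3 had a log2 fold change of -0.10, and Fzd4, Fzd7, Tcf7 and Tcf7l2 lay between -0.61 (Fzd4) and 0.54 (Tcf7).

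In both experiments many Wnt genes had too few reads for the fit. On the CDE diet 21 were not tested, none over 17 counts in a library, and 6 of them had 3 counts or fewer over all libraries. Fzd2, a receptor of WNT5A, had 2, 0 and 0 read counts in CflarFF and 17, 3 and 6 in CflarLKO libraries, a scaled ratio of 9.87 (95% counting interval 2.47 to 85.8). It lay above the controls in every CflarLKO library and passed without the filter on low counts (log2 fold change 3.09, edgeR adjusted p = 0.00396). Wnt11 had 0, 1 and 1 in CflarFF and 6, 6 and 0 in CflarLKO libraries, a ratio of 4.56 (1.01 to 41.9) that CflarLKO replicate 3 did not share. Without the filter Wnt11 did not pass (edgeR adjusted p = 0.226). Ror2, the relative of Ror1, had 0 counts in all CflarFF libraries and 4, 3 and 0 in CflarLKO libraries. With the CflarFF group set to a floor of 3 counts the scaled ratio is 1.77. That value is no lower bound, as the 95% counting interval of the ratio goes down to 1.09. Ror2 did not pass without the filter either (edgeR adjusted p = 0.107). The groups did not overlap for Wnt10a (0, 2 and 1, then 4, 3 and 5 counts) and Dkk4 (0, 0 and 1, then 2, 2 and 3 counts). With so few reads their counting intervals included 1. The same held for Dkk1, Dkk2, Fzd9, Rspo1, Sfrp4, Sfrp5, Wnt6, Wnt7a, Wnt8a and Wnt9a, among which Rspo1 alone had fewer scaled counts in CflarLKO libraries. Dkk2 had the most reads of these, with 5, 9 and 8, then 12, 16 and 7 counts. Rspo2, Wif1, Wnt1, Wnt2b, Wnt8b and Wnt16 were the 6 genes with at most 3 counts. Intervals and floors cover counting error only.

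On the normal diet 31 Wnt genes were not tested, all 12 ligands and Axin2 among them, and none had over 29 counts in a library. Wnt5a had 5, 1 and 1 read counts in NonTg and 12, 9 and 7 in Fgf18Tg libraries, a scaled ratio of 3.00 (95% counting interval 1.28 to 8.13). After scaling its groups did not overlap, which with 3 mice against 3 cannot go below an exact permutation p of 0.1, and without the filter it did not pass (edgeR adjusted p = 0.0999). Rspo3 had 6, 2 and 5 in NonTg and 27, 15 and 4 in Fgf18Tg libraries, a ratio of 2.65 (1.41 to 5.35), and passed without the filter (log2 fold change 1.32, edgeR adjusted p = 0.0453). Fzd1 had 8, 8 and 2, then 29, 18 and 3, a ratio of 2.08 (1.19 to 3.79) that did not pass without the filter (edgeR adjusted p = 0.140). Axin2 had 7, 4 and 6 in NonTg and 16, 5 and 2 in Fgf18Tg libraries, a ratio of 1.01 (0.519 to 2.02), and a change within that interval was not detectable at this depth. Ror1, with 6, 4 and 6, then 8, 9 and 8 counts, had a ratio of 1.17 (0.601 to 2.35). Wnt4, Sfrp1 and Lgr5 lay above their controls after scaling and Wnt5b below, and the counting interval of each included 1. Intervals that included 1 were also found for Dkk2, Fzd3, Fzd6, Fzd9, Lef1, Rspo2, Sfrp4, Wif1, Wnt2 and Wnt9b. Dkk1, Fzd2, Ror2, Rspo1, Sfrp2, Wnt2b, Wnt3, Wnt3a, Wnt8b, Wnt9a, Wnt11 and Wnt16 had 3 counts or fewer over the 6 libraries.

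**Figure D3:**
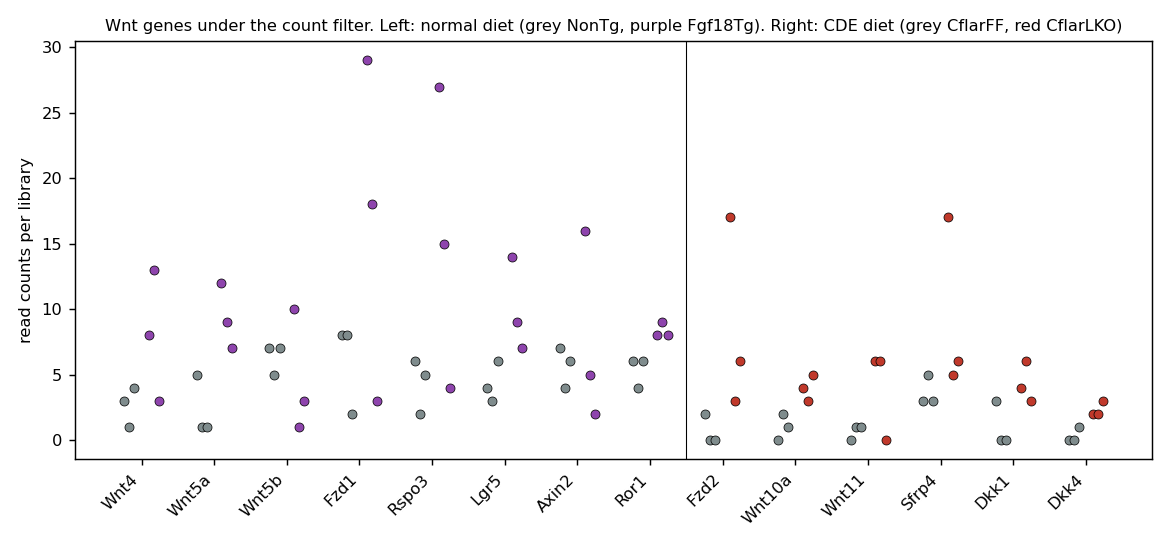
Read counts per library (y axis) of Wnt genes removed by the filter on low counts, 8 on the normal diet (left, grey NonTg, purple Fgf18Tg) and 6 on the CDE diet (right, grey CflarFF, red CflarLKO). Raw counts are not scaled for depth, and no gene shown has over 29 counts in a library. Wnt5a is higher in every Fgf18Tg library and Fzd2 in every CflarLKO library.

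Of the 16 Wnt genes tested in both experiments, 2 were higher in both, Dkk3 and Frzb. Both reached the level of the filter in 0 NonTg libraries, so on the normal diet they had to differ to be tested. The share of all genes higher in both experiments was not computed, and the pair supports nothing further. Ryk was called on the normal diet only and Lgr4 on the CDE diet only, and 12 were called in neither. Whether the effects differ was tested over genes named in both tables, where 28 Wnt genes could be tested and 0 differed by edgeR at an adjusted p under 0.05, beside 3.1% of 13956 genes. DESeq2 called 0 as well, and at an unadjusted p under 0.05 the difference was positive for 1 and negative for 4. The difference (CflarLKO effect minus Fgf18Tg effect, log2) was 1.54 for Ror1 (edgeR adjusted p = 0.157), -0.44 for Lgr4 (0.269), -1.69 for Dkk3 (standard error 0.92, 0.375) and -1.16 for Frzb (standard error 1.01, 0.624). Standard errors of this size leave room for differences in either direction. Diet, age, sex, depth and gene table differ between the experiments and cannot be told apart.

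The rest of the pathway was read from a list of 59 genes for Wnt secretion, co-receptors, cytoplasmic parts and the branches without β-catenin. On the CDE diet 12 of its 50 tested genes were higher and 3 lower in CflarLKO livers, with a median log2 fold change of 0.06, beside 15.6% higher and 13.1% lower and a median of -0.00 over all genes tested. Of the 12 higher genes, 6 passed the filter only with their CflarLKO libraries, Ptk7, Vangl2, Nkd2 and Nfatc2 among them, and Nkd2 and Nfatc2 reached its level in 0 CflarFF libraries. Wls, the carrier that Wnts need to leave the cell, rose from 59.0 ± 13.01 to 162 ± 26.8 normalized counts (log2 fold change 1.46, edgeR adjusted p = 0.000766). Ptk7 and Vangl2, of the planar cell polarity branch, rose by 2.48 and 1.78, and Nkd2, a feedback inhibitor that binds Dishevelled, by 3.98 on the log2 scale. Nkd2 had 3 counts in all CflarFF libraries together, so its scaled ratio was 17.5 with a counting interval from 5.73 to 86.7, and its log2 fold change was 7.37 without CflarFF replicate 1. Reck, which with ADGRA2 serves WNT7 signals in the brain vasculature, rose by 1.48 and Nfatc2 by 1.60, the latter not passing without CflarLKO replicate 1 (1.47). The lower genes, named after their values were seen, were Lrp4 (-1.05), the corepressor Tle1 (-0.63) and Fermt2 (-0.39). Ctnnb1, which encodes β-catenin, had the highest counts of the list and a log2 fold change of -0.04. With scaling by library size only, 25 were higher and 0 lower. Under that scaling 6649 of all 17036 genes tested were higher and 647 lower, with a median of 0.46. The 3 lower calls became 1 without CflarLKO replicate 1 or without replicate 2.

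In Fgf18Tg livers 5 of the 37 tested genes of this list were higher and 1 was lower, with a median of 0.05, beside 10.7% higher and 11.7% lower and a median of 0.02 over all genes tested. Of the 5 higher genes, 4 passed the filter only with their Fgf18Tg libraries, since Ptk7, Daam2 and Adgra2 reached its level in 0 and Wls in 1 NonTg library. Wls rose there too, from 7.89 ± 4.58 to 23.3 ± 1.80 normalized counts (log2 fold change 1.49, edgeR adjusted p = 0.00654). Tle1 rose by 0.49 (edgeR adjusted p = 0.0158), a call lost with DESeq2, in the fit of all 12 libraries and without NonTg replicate 1, NonTg replicate 2 or Fgf18Tg replicate 2, and Tle3, a corepressor of the same family, fell by 1.26. With scaling by library size only the log2 fold change of Tle1 was 0.90. Ptk7, Daam2 and Adgra2, named after their values were seen, rose by 3.56, 2.18 and 1.53, and the ratio for Ptk7, with 2 counts in all NonTg libraries, was 13.5 (3.47 to 116). Rhoa, with the highest counts of the list, was at 0.01. With scaling by library size only, 15 were higher, beside 3632 of all 10909 genes tested and a median of 0.42. Without NonTg replicate 2 the number lower was 2.

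Promoters were read to show where the letters CTTTGA, the core that TCF/LEF factors bind, stand before the start of called genes. The search took the 250 bases before the start of each RefSeq gene (GRCm38.p6) for CTTTGA or its other strand TCAAAG, whose letters cannot overlap. Of all 32851 windows 13.8% held a match, and 15.8% of the genes with a window held one in any window. For the Wnt genes, 36 of 55 had a window, and 7 of their 45 windows held a match. Of 11 called Wnt genes 6 had a window, and 3 held a match, Frzb, Fzd1 and Ror1. These 3 are shown 5′ to 3′ along the gene, with that of Cyp2e1, a hepatocyte gene that depends on β-catenin, and capitals mark the match. Cyp2e1 was picked singly, and the share of such hepatocyte genes with a match was not computed. The window of Frzb is at chr2:80447397-80447646 (minus strand) with the match at 95 to 90 bases before the start, that of Fzd1 at chr5:4758217-4758466 (minus strand, 242 to 237), that of Ror1 at chr4:100095541-100095790 (plus strand, 205 to 200) and that of Cyp2e1 at chr7:140763569-140763818 (plus strand, 135 to 130). A match is a description of the sequence and no evidence of binding.
Frzb: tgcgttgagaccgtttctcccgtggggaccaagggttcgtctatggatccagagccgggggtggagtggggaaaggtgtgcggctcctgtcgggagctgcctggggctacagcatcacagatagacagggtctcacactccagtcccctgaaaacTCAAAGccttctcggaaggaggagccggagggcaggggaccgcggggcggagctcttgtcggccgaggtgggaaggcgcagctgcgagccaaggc
Fzd1: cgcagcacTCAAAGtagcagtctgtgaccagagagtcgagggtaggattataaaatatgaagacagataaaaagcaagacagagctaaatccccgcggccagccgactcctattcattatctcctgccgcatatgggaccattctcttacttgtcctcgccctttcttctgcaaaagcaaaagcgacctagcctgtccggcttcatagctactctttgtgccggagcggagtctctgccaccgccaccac
Ror1: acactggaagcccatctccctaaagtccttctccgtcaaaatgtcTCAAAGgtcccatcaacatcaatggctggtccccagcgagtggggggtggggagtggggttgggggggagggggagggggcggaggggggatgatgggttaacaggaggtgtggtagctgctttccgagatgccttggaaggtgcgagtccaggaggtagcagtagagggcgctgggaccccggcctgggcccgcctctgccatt
Cyp2e1: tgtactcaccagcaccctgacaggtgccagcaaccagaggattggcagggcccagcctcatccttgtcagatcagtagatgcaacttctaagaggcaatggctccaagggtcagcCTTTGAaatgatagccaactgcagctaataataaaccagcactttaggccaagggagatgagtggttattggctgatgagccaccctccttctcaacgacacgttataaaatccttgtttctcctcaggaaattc

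Hepatocyte genes that depend on β-catenin were read from a list of 24 genes expressed mainly around the central vein. On the CDE diet 11 of 24 were lower and 2 higher in CflarLKO livers, with a median log2 fold change of -0.66. Over all genes tested 13.1% were lower and 15.6% higher, with a median of -0.00. The 12 general hepatocyte markers counted below had a median of -0.74, with 7 lower and 0 higher. Whether the list fell more than hepatocyte genes in general was not tested. Cyp2e1, whose promoter is shown above, had 71724, 42373 and 73099 normalized counts in CflarFF and 23851, 21575 and 23916 in CflarLKO livers. CflarFF replicate 2 was the lowest control and still well above all CflarLKO livers, and the log2 fold change was -1.43 (edgeR adjusted p = 0.00147). Avpr1a, a vasopressin receptor, fell by 3.34 and the cytochromes Cyp2c37 and Cyp1a2 by 3.45 and 1.58, the last a call lost without CflarFF replicate 3 (-1.57), CflarLKO replicate 1 (-1.38) or CflarLKO replicate 2 (-1.57). The ammonium transporter Rhbg rose from 138 ± 62.7 to 507 ± 94.9 (log2 fold change 1.89, edgeR adjusted p = 0.0022), and Slc1a4, a neutral amino acid transporter, rose by 1.47. Glul, named after its values were seen, was at 12192 ± 1251 in CflarFF and 10353 ± 1459 in CflarLKO livers (log2 fold change -0.24, edgeR adjusted p = 0.367). The 11 lower calls became 7 without CflarLKO replicate 1, 6 without CflarLKO replicate 2 and 4 with scaling by library size only. Under that scaling 647 of all 17036 genes tested were lower.

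On the normal diet 12 of 23 genes of this list were lower and 1 higher in Fgf18Tg livers, with a median of -0.43. Over all genes tested 11.7% were lower and 10.7% higher, with a median of 0.02. The 12 general hepatocyte markers had a median of -0.33, with 5 lower and 1 higher, and the 2 sets were not tested against each other. Glul had 1369, 1438 and 1340 normalized counts in NonTg and 517, 756 and 330 in Fgf18Tg livers. All Fgf18Tg livers lay below all NonTg livers, with a log2 fold change of -1.36 (edgeR adjusted p = 0.0148), a call lost without any 1 of the NonTg replicates 1 to 3 or Fgf18Tg replicate 1, with values from -1.41 to -1.34. Slc1a2, the glutamate transporter that shares the Glul-positive hepatocytes, fell by 2.35 (edgeR adjusted p = 9.73e-08), Cyp2c29 by 2.27, Rhbg by 2.15, Cyp1a2 by 1.74, the nuclear receptor Nr1i3 by 1.68 and Cyp2c37 by 1.54, the last a call lost in the fit of all 12 libraries (-1.61). Avpr1a rose by 0.92. Cyp2e1, with the highest counts, was at 10443 ± 1237 in NonTg and 8821 ± 982 in Fgf18Tg livers (log2 fold change -0.24, edgeR adjusted p = 0.167). With scaling by library size only 2 were higher and 10 lower, beside 3632 higher and 344 lower of all 10909 genes tested. Of the list 2 were higher without NonTg replicate 1, and 0 in the fit of all 12 libraries.

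**Figure D4:**
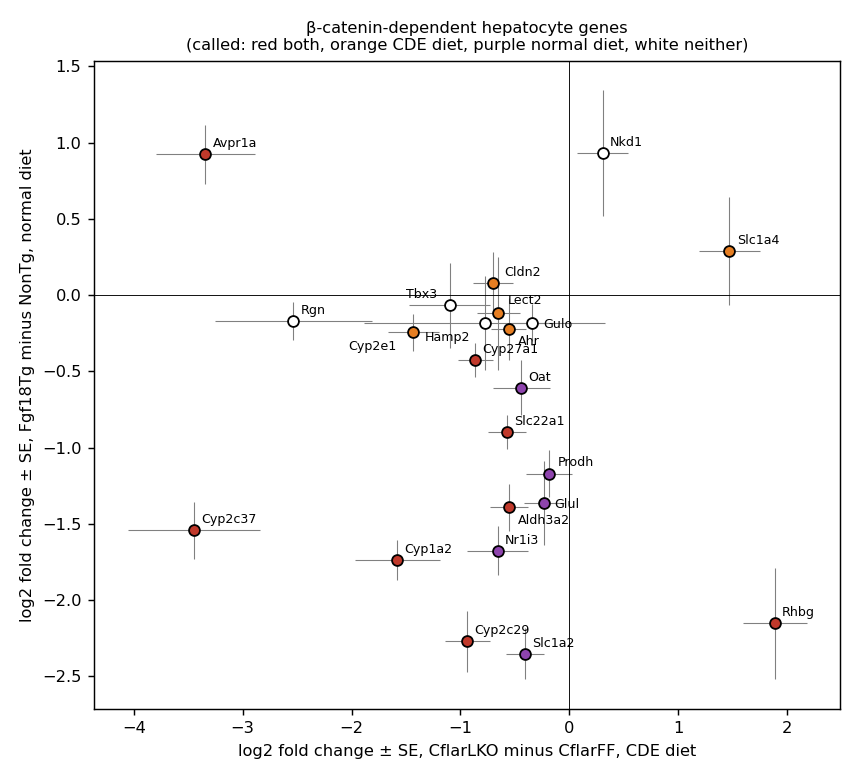
Log2 fold changes with standard errors of hepatocyte genes that depend on β-catenin, on the CDE diet (x axis, CflarLKO minus CflarFF) and the normal diet (y axis, Fgf18Tg minus NonTg). Red points were called in both experiments, orange in the CDE diet and purple in the normal diet experiment, white in neither. Rhbg (1.89 and -2.15) and Avpr1a (-3.34 and 0.92) were called in opposite directions.

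Targets that Wnt signals are known to drive in other tissues were read from a list of 20 genes. Of these, 9 of 17 tested were higher in CflarLKO livers on the CDE diet, with a median of 0.96. Over all genes tested 15.6% were higher, with a median of -0.00. The lists share genes, and Sox9, among these 9, is also counted below as a bile duct marker. Nkd1, Sp5 and Tbx3 stand in both target lists, and Nkd1 and Apcdd1 also in that of other pathway genes. Ccn5, a matricellular protein that reached the level of the filter in 0 CflarFF libraries, rose by 2.85, Nedd9, a scaffold of cell adhesion, by 2.15, the hyaluronan receptor Cd44 by 2.02, the Notch ligand Jag1 by 1.35, Bambi, a pseudoreceptor for TGF-β family ligands, by 1.33 and Tnfrsf19 by 1.26. Ccnd1, the cyclin of the G1 phase, with the highest counts of the list, rose by 0.96. By edgeR 0 were lower, with 2 at an unadjusted p under 0.05, and DESeq2 called 1 lower. Of the 8 not called, named after their values were seen, Sp5 was at -1.11 and Tbx3 at -1.10 (edgeR adjusted p = 0.100 and 0.0694). Nkd1 was at 0.31, Apcdd1 at 0.27, Fgf9 at 0.12, Met at -0.07 and Ccn4 at 0.69. Mmp7 was at 3.32 (edgeR adjusted p = 0.0896). On the normal diet 3 of 9 tested were higher in Fgf18Tg livers, Bambi by 2.31, Cd44 by 1.52 and Ccn4, named after its values were seen, by 2.05, beside 10.7% of all genes tested. All 3 passed the filter only with their Fgf18Tg libraries, since Bambi and Ccn4 reached its level in 0 and Cd44 in 2 NonTg libraries. Ccnd1 was at 0.52 there (edgeR adjusted p = 0.0946) and passed without Fgf18Tg replicate 3, without the filter on low counts and with scaling by library size only (0.92). Under that scaling 7 genes of the list were higher, beside 3632 of all 10909 genes tested and a median of 0.42.

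Markers of several cell types moved with these results, and their counts stand beside 15.6% higher and 13.1% lower over all genes tested on the CDE diet and 10.7% and 11.7% on the normal diet. On the CDE diet 10 of 18 tested stellate cell markers were higher and 4 lower, and their summed level ran from 3667 to 4740 normalized counts in CflarFF and from 5543 to 7779 in CflarLKO livers. Myofibroblast markers were higher in 8 of 11 (summed 1198 to 1508, then 4562 to 5136), portal fibroblast and mesothelium markers in 9 of 11 (281 to 389, then 1317 to 1420), bile duct markers in 8 of 11 (1535 to 4519, then 8612 to 12233) and monocyte and macrophage markers in 12 of 12 (1497 to 2334, then 5624 to 6438). T and NK cell markers were higher in 3 of 9. Endothelial markers were higher in 2 of 20, with summed levels that overlapped (2476 to 3224, then 2944 to 3990), and hepatocyte markers were lower in 7 of 12 (700712 to 1458190, then 467186 to 556029). Kupffer cell markers summed to 2429 to 3230 and 2775 to 3129, and B cell markers to 20.2 to 65.5 and 43.3 to 61.6. Every marker had reads in at least 1 library.

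On the normal diet 10 of 16 stellate cell markers were higher and 1 lower (summed 797 to 870 in NonTg, 1416 to 1606 in Fgf18Tg livers), as were 6 of 7 of myofibroblasts (125 to 167, then 470 to 717), 2 of 4 of portal fibroblasts and mesothelium (36.2 to 50.2, then 96.2 to 150), 2 of 3 of bile ducts (116 to 175, then 464 to 684) and 5 of 6 of monocytes and macrophages (103 to 112, then 339 to 379). Endothelial markers were higher in 2 and lower in 2 of 14 (359 to 488, then 516 to 569), hepatocyte markers higher in 1 and lower in 5 of 12 (267015 to 289206, then 238424 to 265788), and Kupffer cell markers lower in 1 of 4 (707 to 815, then 469 to 568). T and NK cell markers summed to 15.9 to 19.4 and 32.4 to 33.6 and B cell markers to 3.23 to 10.6 and 15.3 to 25.8, too low to test. The part of these shifts in the changes of Wnt genes was not tested.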

How the data were processed

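Whole-liver polyadenylated RNA was sequenced. The authors mapped the reads to GRCm39 with Bowtie2 and deposited whole-number read counts per gene symbol, 1 table per experiment; the counting tool and gene annotation are not given in the sources used here. Values the authors normalized by 1 factor per library with TCC-GUI were not used. All columns matched a sample (0 left over). The members, lists and tests were chosen with earlier results of these data known.

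The 6 libraries of an experiment were fitted apart from the other 6 in R 4.3.3 with edgeR 4.0.16 (TMM, filterByExpr with a minimum count of 10 and a total of 15, robust quasi-likelihood test), with Benjamini-Hochberg adjustment over all genes tested and calls at an adjusted p under 0.05. Normalized counts are counts divided by library size times TMM factor, rescaled to the mean of the experiment. They were not divided by gene length, so levels are not compared between genes. The difference between effects was fitted on all 12 libraries. Standard errors, also those drawn as bars, are the absolute log2 fold change divided by the square root of the quasi-likelihood F statistic. They are therefore approximate. For genes with few reads, summed counts were compared with exact 95% intervals and a floor of 3 counts. Alternatives were RLE factors, library size only, DESeq2 1.42.0, no filter, all 12 libraries in 1 fit, a replicate block and leaving out each library. No 2 replicates of a group agreed within sampling noise (lowest chi-square per degree of freedom 3.38), and libraries of different groups were not compared. The pipeline was tested on simulated data. Changes were planted there only in genes with higher mean counts, so calls on genes with few reads were not covered. All Wnt genes are named, with library values for the called ones. Of each other list up to 6 called genes are named, largest change first (group mean of 20 or more normalized counts), and that with the highest counts. Sequences are from RefSeq (GRCm38.p6), matched by symbol.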

Additional observations from a re-analysis of the deposited data

Results flagged for a closer look

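The effect of CflarLKO on the CDE diet and that of Fgf18Tg on the normal diet differed for 432 of 13956 genes by the edgeR test of the difference itself (CflarLKO effect minus Fgf18Tg effect, log2), with 0 Wnt genes among them. Of the 85 tested genes in the lists of other pathway genes, hepatocyte targets and general targets, 9 differed. Rhbg differed by 4.14 (adjusted p = 0.00129), being higher in CflarLKO and lower in Fgf18Tg livers than in their own controls. Avpr1a differed by -4.18 (adjusted p = 0.00434), with the directions exchanged. Slc1a2 differed by 2.04 (adjusted p = 0.000405), Cyp2c29 by 1.42 (adjusted p = 0.0122) and Glul by 1.21 (adjusted p = 0.0359). Prodh differed by 1.07 (adjusted p = 0.0447) and Aldh3a2 by 0.92 (adjusted p = 0.0362). From Slc1a2 to Aldh3a2, all had the lower log2 fold change in the Fgf18Tg comparison. Cyp2e1 differed by -1.10 (adjusted p = 0.0328), with the lower log2 fold change in the CflarLKO comparison. Tle1 differed by -1.04 (adjusted p = 0.0101), lower in CflarLKO and higher in Fgf18Tg livers than in their own controls. Diet, age, sex, depth and gene table differ between the experiments and cannot be told apart.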

How the results depend on the processing

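On the CDE diet the number of higher Wnt genes was 9 with RLE factors and DESeq2, 13 with library size only, 11 without the filter, 8 with all 12 libraries (Wnt7b is not in the other table) and 8 to 10 when a library was left out. The number lower was 0 with library size only, 2 with all 12 libraries and 1 to 2 when a library was left out. On the normal diet 7 were higher with library size only, 2 with DESeq2, 4 without the filter and 2 to 4 when a library was left out. The difference between effects gave 0 members, or 0 to 1 when a library was left out (Lrp5, -1.12, without NonTg replicate 1). Library numbers did not pair libraries across groups (correlations of deviations between libraries of the same number from -0.113 to 0.087), and a replicate block gave 9 higher and 1 lower on the CDE diet and 4 higher on the normal diet, and 8 in place of 11 lower hepatocyte target genes on the CDE diet. Under the block Cyp2c37 (-3.25, adjusted p = 0.0574) and Cyp1a2 (-1.51, adjusted p = 0.0572) lost their calls on the CDE diet, and Tcf7l1 (0.98, adjusted p = 0.0477) and Ccnd1 (0.49, adjusted p = 0.0448) gained one on the normal diet.

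Over all genes tested, library size only gave 6649 higher and 647 lower on the CDE diet and 3632 higher and 344 lower on the normal diet, and DESeq2 gave 726 higher and 796 lower on the normal diet. Without CflarLKO replicate 1 or 2 the number lower on the CDE diet was 1280 or 1235, and the difference between effects called 229 to 1075 genes when a library was left out.

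With library size only, uncalled genes changed sign on the CDE diet to 0.41 (Fzd4), 0.29 (Fzd7), 0.27 (Fzd8), 0.25 (Lgr5), 0.35 (Lrp5), 0.26 (Lrp6), 0.11 (Tcf7), 0.20 (Tcf7l1), 0.43 (Wnt5b), 0.21 (Znrf3), 0.42 (Ctnnb1) and 0.23 (Glul), and on the normal diet to 0.12 (Fzd7), 0.094 (Lgr4), 0.22 (Lrp6), 0.39 (Notum), 0.29 (Znrf3) and 0.16 (Cyp2e1), beside medians of all genes of 0.46 and 0.42. Leaving out a library changed the sign of values near 0, which ran on the CDE diet from -0.15 to 0.13 for Fzd4, -0.37 to 0.053 for Fzd8, -0.57 to 0.071 for Tcf7l1, -0.20 to 0.26 for Wnt5b, -0.093 to 0.037 for Ctnnb1, -0.22 to 0.39 for Axin2, -0.0036 to 0.10 for Tcf7l2 and -0.032 to 0.50 for Fzd3, and on the normal diet from -0.17 to 0.16 for Notum and -0.033 to 0.077 for Rhoa. With all 12 libraries Wnt5b was at 0.0011 and Rhoa at -0.054, and without the filter Rhoa was at -0.029. None of these passed the test. The cause was not tested. Low depth on the normal diet limits all ligands.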
